A study of Rattus norvegicus with 6 samples.

Results

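Sprr1a, Tgm1, Lce1f, Cldn4, Crisp3, Smagp, Sdc1 and Serpinb2 are 8 genes best known from epithelia and their barriers, and they were measured here in rat dorsal root ganglia (DRG) after nerve injury. The 8 genes were selected on their measured values in the CCI and sham groups of these same libraries, so their differences between the groups are given as a description, without a test. Each gene was found by its symbol in the deposited table of 43350 gene rows. All 8 of 8 were found, each on 1 protein-coding row.

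Chronic constriction injury (CCI) is a model of neuropathic pain in which the left sciatic nerve of male Sprague-Dawley rats is loosely constricted by ligatures. In the sham group the nerve was exposed but not ligated, and the labels record no treatment for these rats. RNA came from the L4-6 DRG on the operated side, 11 days after surgery, and was sequenced after depletion of ribosomal RNA in 3 CCI and 3 sham libraries. According to the methods each library was 1 rat, whereas the library protocol in the labels speaks of a pooled sample. No transgene, drug or further agent is named for either group. The rats were perfused with saline, and the ganglia were taken whole, with neurons, glia, connective tissue and resident immune cells together. In such bulk tissue a change in the number of cells of a type and a change in RNA per cell cannot be told apart.

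The epidermal barrier rests on the cornified envelope, a shell of small proline-rich proteins, late cornified envelope proteins and other precursors that transglutaminases cross-link under the membrane of keratinocytes. Between cells, claudins seal the tight junction and desmosomes anchor the intermediate filaments, while syndecans carry heparan sulfate at the cell surface. Sprr1a is also known outside the skin as a gene that sensory neurons switch on after their axons are cut.

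Total counts were 75423546 to 87615743 per library, and 3 counts, taken as the detection floor, amounted to between 0.0342 and 0.0398 CPM. Levels in CPM are counts relative to library size, and library sizes were scaled with TMM factors of 0.988 to 1.01. Where a fold is given with an interval, it is the ratio of the pooled counts of the 3 CCI rats to those of the 3 sham rats, per scaled library size, with an exact (Clopper-Pearson) 95% interval that covers counting error only. FPKM values are used as deposited and relate reads to length and library size, but the length they imply is not the same in every library for every row. For Lce1f the log2 ratio of CCI to sham was 5.83 in FPKM and 5.58 in CPM. Rows averaging 0.5 FPKM or more over the 6 libraries, 26663 in all, entered a fit with edgeR's quasi-likelihood test. Sham 1 stood apart in skeletal muscle genes, whose summed level was 507 CPM there, 74.4 and 123 CPM in sham 2 and 3 and 54.1 to 64.6 CPM in the CCI rats. Values without single rats are therefore given beside the results.

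Promoter sequences of 7 of the 8 genes were matched in RefSeq (build GRCr8), each running from 250 bases before the annotated start to 50 bases after it. They were searched on both strands for TGANTCA, the AP-1 motif bound by Fos, Jun and ATF family dimers, and for TGACGTCA, the cAMP response element (CRE). Sprr1a had 2 matches to the AP-1 motif, both spelled TGAGTCA, which began 147 and 117 bases before the start. Serpinb2 had 1, spelled TGATTCA, which began 189 bases before the start. Tgm1, Lce1f, Crisp3, Smagp and Sdc1 had none, and the CRE was not found in any of the 7. Of 33469 rat promoter windows of the same length, 7.33% held at least 1 AP-1 match, 0.415% held at least 2 and 1.83% held a CRE. The windows of Sprr1a and Serpinb2 are shown because they hold the motif, and those of Lce1f and Tgm1 because they belong to a partner of Sprr1a in the cornified envelope and to the enzyme that cross-links it. Each is written 5′ to 3′ along the strand of its gene, with the AP-1 matches in capitals.
Sprr1a, chr2:180752576-180752875, minus strand: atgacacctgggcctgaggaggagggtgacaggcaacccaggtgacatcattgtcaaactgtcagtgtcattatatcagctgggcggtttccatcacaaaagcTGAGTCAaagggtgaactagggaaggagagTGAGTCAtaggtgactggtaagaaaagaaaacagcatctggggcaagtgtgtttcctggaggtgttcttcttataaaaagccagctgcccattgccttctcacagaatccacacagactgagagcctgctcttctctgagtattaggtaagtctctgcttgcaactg
Serpinb2, chr13:24055771-24056070, plus strand: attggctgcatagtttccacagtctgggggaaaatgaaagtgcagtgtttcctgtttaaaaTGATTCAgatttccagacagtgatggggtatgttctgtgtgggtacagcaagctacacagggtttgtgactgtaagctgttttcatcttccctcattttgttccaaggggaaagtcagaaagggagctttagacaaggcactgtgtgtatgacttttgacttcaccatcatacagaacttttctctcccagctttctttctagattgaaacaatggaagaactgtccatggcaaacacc
Lce1f, chr2:181002936-181003235, minus strand: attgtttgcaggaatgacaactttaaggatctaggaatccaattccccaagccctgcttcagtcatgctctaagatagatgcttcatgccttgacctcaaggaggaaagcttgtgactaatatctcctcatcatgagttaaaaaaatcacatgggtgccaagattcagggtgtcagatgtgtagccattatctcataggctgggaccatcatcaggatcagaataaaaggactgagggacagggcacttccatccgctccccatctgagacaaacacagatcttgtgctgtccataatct
Tgm1, chr15:33174218-33174517, minus strand: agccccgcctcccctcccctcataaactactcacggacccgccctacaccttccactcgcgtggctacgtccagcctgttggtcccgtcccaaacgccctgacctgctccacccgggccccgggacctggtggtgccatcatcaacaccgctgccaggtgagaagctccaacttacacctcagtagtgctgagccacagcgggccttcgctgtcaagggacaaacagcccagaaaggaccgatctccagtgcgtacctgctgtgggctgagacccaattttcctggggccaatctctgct
The windows also differed in base composition. The GC content was 48.3% for Sprr1a, 44.7% for Lce1f, 45.7% for Crisp3 and 42.7% for Serpinb2, against a median of 51.7% over all windows. It was 62% for Tgm1, 64.7% for Sdc1 and 77.7% for Smagp. A match to a motif is a description of these letters and was not tested against binding.

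Both precursors of the cornified envelope among the 8 had 7 or fewer counts in each sham rat and 42 or more in each CCI rat, and the enzyme had 45 or fewer and 459 or more. Sprr1a, a small proline-rich precursor of the envelope, had 429, 133 and 115 counts in CCI 1, 2 and 3, compared with 6, 6 and 0 in the sham rats in the same order. Its level was 2.81 ± 2.14 CPM in CCI and 0.0479 ± 0.0417 CPM in sham (mean ± SD, n = 3 each), a ratio of 58.6, with a pooled fold of 59.2 (33.7 to 115). The lowest CCI rat lay 20.0-fold above the highest sham rat. Lce1f, a late cornified envelope protein, had 355, 99 and 42 counts in the CCI rats and 7, 1 and 3 in the sham rats. Its level was 2.05 ± 2.04 CPM in CCI and 0.0428 ± 0.0340 CPM in sham (n = 3 each), a ratio of 47.8, with a pooled fold of 47.3 (26.2 to 95.4). Sham 2 and 3 were at or under the detection floor for Lce1f, and CCI 3 was the lowest injured rat, 6.92-fold above sham 1.

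Tgm1, the membrane-anchored transglutaminase of keratinocytes that ties glutamine to lysine side chains of envelope precursors, had 2642, 525 and 459 counts in the CCI rats and 28, 33 and 45 in the sham rats. Its level was 15.0 ± 15.1 CPM in CCI and 0.426 ± 0.113 CPM in sham (n = 3 each), a ratio of 35.2, with a pooled fold of 35.9 (29.6 to 44.0). The groups did not overlap, and CCI 1 carried 72.2% of the summed CCI level of this enzyme. Unlike its substrates, Tgm1 was above the floor in every sham rat.

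Both junction proteins among the 8 were also higher in every CCI rat than in any sham rat, from different starting levels. Cldn4, a claudin of the tight junction, had 265, 119 and 73 counts in the CCI rats and 4, 16 and 0 in the sham rats. Its level was 1.90 ± 1.21 CPM in CCI and 0.0823 ± 0.106 CPM in sham (n = 3 each), a ratio of 23.0, with a pooled fold of 24.0 (15.3 to 39.6). Most of the sham reads of Cldn4 came from sham 2. Smagp, a small glycosylated transmembrane protein found at cell contacts of epithelia, had 730, 363 and 274 counts in the CCI rats and 107, 62 and 92 in the sham rats. Its level was 5.69 ± 2.88 CPM in CCI and 1.04 ± 0.228 CPM in sham (n = 3 each), a ratio of 5.49, with a pooled fold of 5.50 (4.81 to 6.30). Smagp was thus read well above the floor in sham ganglia. Its row overlaps that of Dazap2 on the other strand, which held 17427 counts in all, and whether strand was used in counting is not given in the sources used here.

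The surface and secreted proteins spanned the smallest and the largest ratio of the 8. Sdc1, syndecan-1, a heparan sulfate proteoglycan of epithelia and plasma cells, had 1237, 659 and 394 counts in the CCI rats and 250, 202 and 236 in the sham rats. Its level was 9.51 ± 5.16 CPM in CCI and 2.75 ± 0.176 CPM in sham (n = 3 each), a ratio of 3.46, with a pooled fold of 3.49 (3.21 to 3.81). The sham rats were close to one another and the nearest injured rat, CCI 3, lay 1.81-fold above them. Crisp3, a cysteine-rich secretory protein of the CAP family known from salivary gland and neutrophil granules, had 1531, 317 and 387 counts in the CCI rats and 0, 8 and 6 in the sham rats. Its level was 9.28 ± 8.29 CPM in CCI and 0.0578 ± 0.0520 CPM in sham (n = 3 each), a ratio of 160.6, with a pooled fold of 168 (99.7 to 307). Crisp3 had the widest gap between the groups of the 8, with the lowest CCI rat 39.0-fold above the highest sham rat.

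Serpinb2, plasminogen activator inhibitor-2, which blocks urokinase and is made by keratinocytes and macrophages, had 201, 114 and 38 counts in the CCI rats and 8, 19 and 0 in the sham rats. Its level was 1.46 ± 0.988 CPM in CCI and 0.110 ± 0.121 CPM in sham (n = 3 each), a ratio of 13.3, with a pooled fold of 13.7 (9.27 to 21.1). CCI 3 lay only 2.08-fold above sham 2 for Serpinb2.

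**Figure D1:**
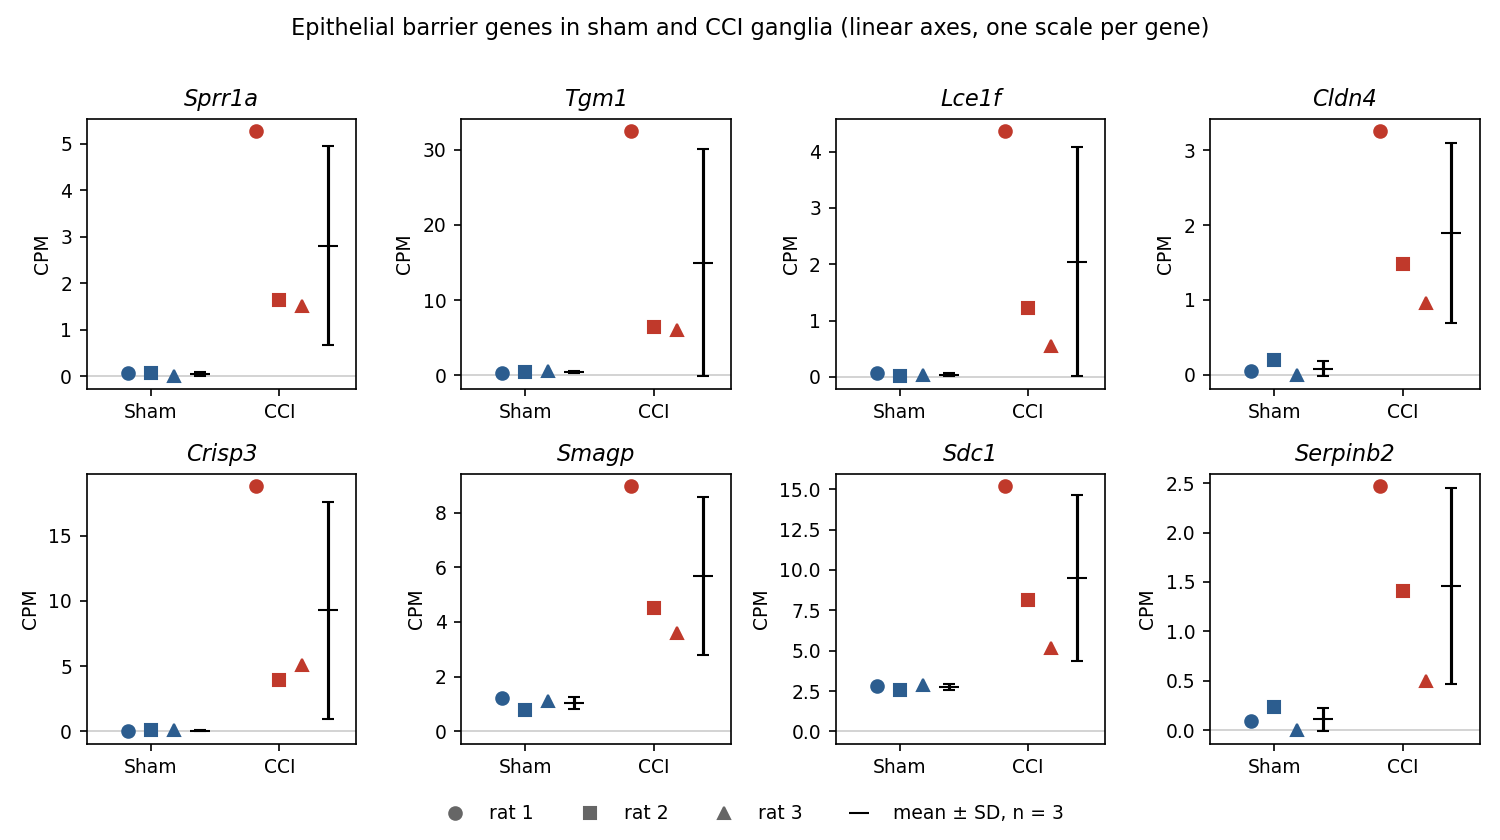
Level of each of the 8 genes in CPM (linear vertical axes from 0, a separate scale per gene) in sham rats (blue) and CCI rats (red), with a symbol per rat and the mean ± SD of 3 rats in black. All CCI rats lie above all sham rats in 8 of 8 genes, and CCI 1 is the highest rat in each panel.

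The median ratio of the 8 genes was 29.1, and all CCI rats lay above all sham rats in 8 of 8. Over all rows tested, 8.63% were ordered in this way, and since the genes were chosen on these values nothing is read from the count. The mean FPKM was at least 0.5 for 7 of the 8 genes, with Cldn4 just inside at 0.501 and Serpinb2 outside at 0.364. Of the 7 genes that passed, 5 were under 0.5 FPKM in every sham rat and so passed through their CCI values.

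The size of the ratios changed when single rats were left out. Without CCI 1 the median ratio was 14.7, and the single ratios were 78.0 for Crisp3, 32.9 for Sprr1a, 20.8 for Lce1f, 14.8 for Cldn4, 14.7 for Tgm1, 8.68 for Serpinb2, 3.90 for Smagp and 2.43 for Sdc1. Without sham 2 the log2 ratio of mean CPM rose from 4.53 to 6.38 for Cldn4, from 3.73 to 5.01 for Serpinb2 and from 7.33 to 8.00 for Crisp3, and without sham 1 that of Lce1f rose from 5.58 to 6.39. Without sham 1, the rat with the muscle reads, the log2 ratio was 6.74 for Crisp3, 6.22 for Sprr1a, 4.97 for Tgm1 and 4.23 for Cldn4. Without sham 3 it was 5.29 for Sprr1a, 3.94 for Cldn4 and 3.15 for Serpinb2. The lowest value over all 6 omissions was 1.28, for Sdc1 without CCI 1.

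The injured rats differed among themselves in the same order for nearly every gene of the 8. CCI 1 was the highest CCI rat in 8 of 8 genes, and CCI 3 was the lowest in 7, the exception being Crisp3, which was lowest in CCI 2. The summed level of the 8 genes was 90.9 CPM in CCI 1, 28.8 in CCI 2 and 23.4 in CCI 3, against 4.66, 4.37 and 4.62 CPM in sham 1, 2 and 3. The level in CCI 1 was 1.75-fold (Serpinb2) to 5.00-fold (Tgm1) that in CCI 2, with a median of 2.71, and 2.50-fold (Smagp) to 7.92-fold (Lce1f) that in CCI 3, with a median of 3.60. Among the 26663 rows tested CCI 1 was the highest CCI rat in 35.0%, and over the 679 other rows called higher by the limits given below it was so in 62.4%. A level in CCI 1 at least 2.50-fold that in CCI 3, the smallest such ratio among the 8 genes, was seen in 3.47% of all rows tested and in 8.69% of those 679 rows. All 8 genes reach that cutoff by its definition. They were also chosen on their CCI values, CCI 1 included, so nothing is read from their counts beside these shares. The coefficient of variation over the CCI rats ran from 50.7% for Smagp to 100.9% for Tgm1, and in sham from 6.40% for Sdc1 to 128% for Cldn4.

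Markers of injured neurons differed between the CCI rats in the same direction. The 12 markers, among them Atf3, Gal, Npy, Vip and Sox11, summed to 1043, 745 and 641 CPM in CCI 1, 2 and 3 and to 274 to 285 CPM in sham. CCI 1 was the highest CCI rat in 11 of the 12, all but Gadd45a. Their level in CCI 1 was a median of 1.74-fold that in CCI 2 and 2.12-fold that in CCI 3, and Vip, a neuropeptide gene that sensory neurons induce after axotomy, had the largest of these ratios, 3.57 and 5.25. Markers of fibroblasts and meninges were lower in CCI 1, at 1700 CPM against 2529 to 2951 CPM in the other 5 rats. Their part in the result was not tested.

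**Figure D2:**
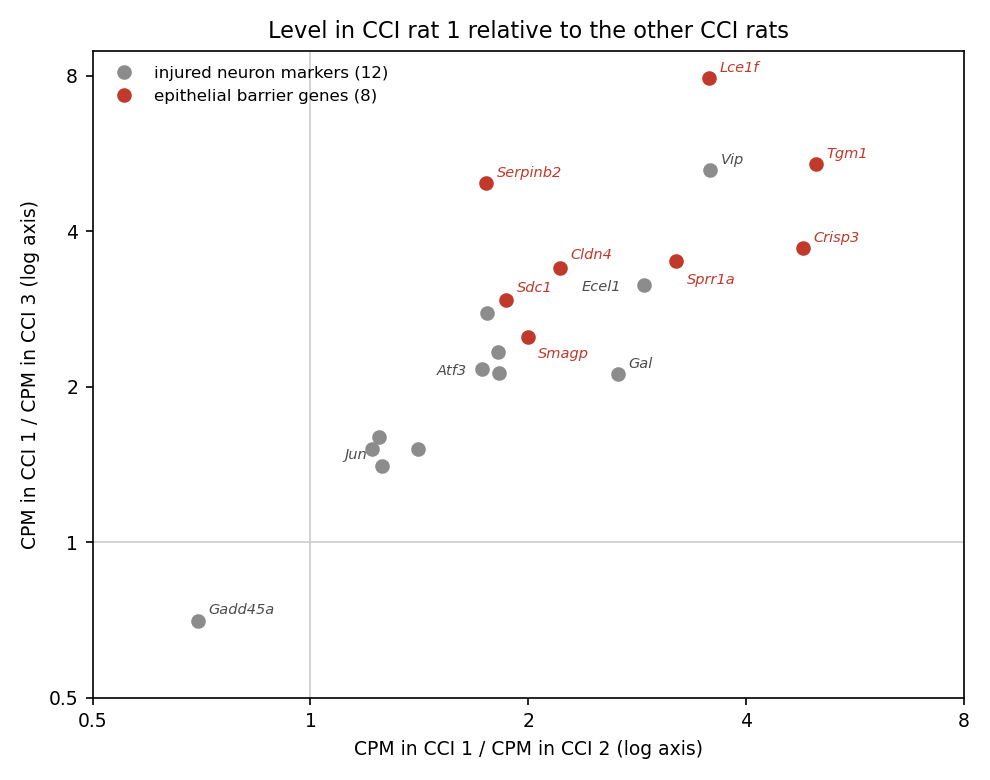
Ratio of the CPM in CCI 1 to that in CCI 2 (horizontal) and to that in CCI 3 (vertical), both on log axes, for the 8 barrier genes (red) and 12 markers of injured neurons (grey, 6 of them named). All 8 barrier genes lie above 1 on both axes, as do 11 of the 12 markers.

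Compared per length, in FPKM, the 8 genes stood in a different order in CCI and in sham. In CCI the mean FPKM was 5.93 ± 5.28 for Crisp3, 4.06 ± 4.09 for Tgm1, 3.48 ± 1.75 for Smagp, 3.16 ± 2.39 for Sprr1a, 2.89 ± 2.87 for Lce1f, 2.84 ± 1.53 for Sdc1, 0.962 ± 0.612 for Cldn4 and 0.679 ± 0.458 for Serpinb2 (SD, n = 3 each). No neighbours in that order differed by more than their SDs except Sdc1 and Cldn4. In sham the order was led by Sdc1 at 0.810 ± 0.0548 FPKM and Smagp at 0.628 ± 0.142 FPKM, followed by Tgm1 at 0.114 ± 0.0294 FPKM. Each sham rat kept the order Sdc1, Smagp, Tgm1, while the range of Tgm1 overlapped those of Lce1f, Serpinb2 and Cldn4. The other 5 genes lay between 0.0331 (Crisp3) and 0.0508 FPKM (Lce1f) in sham, within their spread of one another. In CCI 1, 85.6% of the rows tested had a lower FPKM than Crisp3, 80.5% a lower one than Tgm1, 72.3% than Sprr1a and 18.9% than Serpinb2, so that the genes ranged from well expressed to low even in that rat.

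Likeness of pattern was measured as the root mean square difference of mean-centred log2 CPM (prior count 2) over the 6 libraries, where 0 would be an identical pattern. All genes compared in this way share the same libraries, and the measure is a description. The 8 genes were chosen on their CCI and sham values in these libraries, so the rows most like them are bound to be higher in CCI as well. Nothing is therefore read from which genes come up. Among the 8, of which the 7 tested were compared, the closest pairs were Smagp and Sdc1 (0.387), Sprr1a and Cldn4 (0.629) and Tgm1 and Lce1f (0.638), and the farthest was Crisp3 and Sdc1 (2.70). The gene most like Tgm1 was Cckbr, the cholecystokinin B receptor (0.348), with 745, 283 and 184 counts in the CCI rats and 15, 15 and 23 in sham, and the next was Gal, the neuropeptide galanin (0.422). Cckbr is carried by 2 rows of the table, and the other row was first for Sprr1a (0.749), followed by Npy, neuropeptide Y (0.798). For Sprr1a the list went on with LOC100912228, the matrix protease gene Mmp3 and Gal, and for Tgm1 with AABR07044837, Reg3b and Stac2. Lce1f was most like the cytokine gene Il24 (0.561), which had 396, 91 and 76 counts in the CCI rats and 16, 0 and 6 in sham, and then Cckbr, Csrp3, Gal and Reg3b. For Cldn4 the list was Mmp3 (0.609), Cckbr, Hmg20b, Draxin and Atf3, the last a transcription factor gene used to mark injured neurons. For Crisp3 it was Vip (0.913), LOC100912228, Npy, Mmp3 and LOC103689927. Hmg20b, Draxin and AABR07044837 are also carried by 2 rows each, so the row found need not stand for the whole gene. The Hmg20b row had 76, 22 and 13 counts in the CCI rats and 0, 4 and 0 in sham.

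Smagp and Sdc1, the pair with sham expression, had other neighbours in pattern. Smagp was most like Ecel1, a membrane peptidase gene of injured neurons (0.277), AABR07005593, a row of 5_8S_rRNA, Arg1 and LOC688459. Sdc1 was most like Socs3, the feedback inhibitor of cytokine signalling (0.221), Ptpn5, Stmn4, Cacna2d1 and Cryba2. Cacna2d1 is carried by 3 rows of the table.

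The genomic surroundings of the 8 genes were not used in choosing them. Coordinates here are as deposited for the rat genome that the authors call V101. Sprr1a (chromosome 2, 192669143 to 192671059, minus strand) and Lce1f (chromosome 2, 192990613 to 192992179, minus strand) lie in the same cluster of epidermal genes, known as the epidermal differentiation complex. Around Sprr1a, 22 of the 27 other rows with a midpoint within 500 kb had no count in any library, and around Lce1f it was 21 of 29. Among the neighbours with a symbol that were read, Ivl, involucrin, had 14 counts over all 6 libraries, all from sham rats, and Sprr1b had 2. Flg2 had 30, 12 and 29 counts in CCI and 18, 11 and 26 in sham, and Crnn had 0, 23 and 29 in CCI and 14, 0 and 0 in sham. LOC686143, 193 kb from Lce1f, had 15, 2 and 6 in CCI and 0 in each sham rat.

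Crisp3 (chromosome 9, 24066303 to 24088064, plus strand) had 11 neighbouring rows within 500 kb, of which 9 had no count and none passed the filter. Over the windows of all 8 genes there were 181 neighbouring rows, 51 of them without a count, and 88 were tested. By the limits used in the study, which ask for p under 0.05 without adjustment and 0.58 or more of log2 change in either direction, 4 of the 88 were higher and 2 lower in CCI. Over all 26663 rows tested, 686 (2.57%) were higher and 336 (1.26%) lower by these limits. At a Benjamini-Hochberg adjusted p under 0.05 with the same edgeR test, 0 of the 88 passed, where 17 (0.0638%) of all rows were higher and 8 (0.03%) lower. DESeq2 at an adjusted p under 0.05 called 1 of the 88 higher and 2 lower, and 432 higher and 319 lower of all 26663 rows. An unadjusted p under 0.05 was found for 12 of the 88. The share of all rows at that limit is not given, so nothing is read from this count. The median log2 fold change was 0.01 over the neighbours and 0.01 over all rows tested.

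The neighbours called higher were Mettl27 and Lat2 near Cldn4 (chromosome 12, 24761210 to 24763005, plus strand), Ripk3 near Tgm1 (chromosome 15, 34378148 to 34392066, minus strand) and Slc4a8 near Smagp (chromosome 7, 142244295 to 142260896, minus strand). Mettl27, whose midpoint is 9.51 kb from that of Cldn4, had 245, 227 and 198 counts in CCI and 105, 108 and 103 in sham, a log2 fold change of 1.15 (SE 0.170, unadjusted p = 0.000356, adjusted p = 0.0973, edgeR quasi-likelihood test). Lat2, an adaptor of immune cell signalling, had 76, 76 and 38 counts in CCI and 33, 11 and 12 in sham. Ripk3, a kinase of necroptosis, had 214, 139 and 159 counts in CCI and 109, 47 and 107 in sham. Slc4a8, a sodium-dependent bicarbonate exchanger, had 10300, 6135 and 2775 counts in CCI and 3249, 1907 and 3270 in sham, so that its groups overlapped. The unnamed row MSTRG.16482, 19.8 kb from Lce1f, was called lower on 123, 0 and 133 counts in sham and 0 in each CCI rat. The other row called lower was the pseudogene AABR07058914 near Smagp. Near Sdc1 (chromosome 6, 33885495 to 33908016, plus strand) and Serpinb2 (chromosome 13, 27449934 to 27463010, plus strand) 0 of 9 and 0 of 5 rows tested were called. Leaving out 1 rat at a time gave 3 to 5 neighbours called higher and 1 to 4 called lower, with 4 lower without CCI 3 and 1 lower without sham 1 or without sham 3.

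Most other genes of epithelial barriers did not pass the test. Of 193 genes in 10 lists of barrier pathways and families, with the 8 left out, 168 were found, 24 had no count in any library, 64 were under the filter and 80 were tested. Higher in CCI by the study's limits were 4, Dsp, Cldn22, Plau and Glipr2 (5% of those tested, against 2.57% of all rows), and 1 was lower, Hpse (against 1.26%). At an adjusted p under 0.05 with edgeR's quasi-likelihood test and Benjamini-Hochberg adjustment, 0 of the 80 passed, whereas 20 had an unadjusted p under 0.05 and DESeq2 called 6 higher and 3 lower. The median log2 fold change of the 80 genes was 0.04. All CCI rats lay above all sham rats in 16 of the 80, a larger share than the 2301 (8.63%) of all 26663 rows tested. Without CCI 3 the genes called lower numbered 3 and 1 gene was higher at an adjusted p under 0.05, and without sham 2 those called lower numbered 2. The lists were drawn up with earlier results of these data known.

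The cornified envelope was represented by few genes other than Sprr1a and Lce1f. Of 41 other envelope genes listed, 23 were found, and of these 9 had no count, 12 were under the filter and 2 were tested. Krtdap, Csta, Sprr2d, Sprr3, Kprp, Lce1m, Lce3e and Lce6a were among those with no count. The plakin Ppl (4.95 ± 0.604 CPM in CCI, 5.03 ± 0.914 in sham) and the protease inhibitor Cstb (50.3 ± 4.22 and 48.9 ± 0.842 CPM) had log2 fold changes of -0.02 and 0.04 and were not called. The scaffold protein genes Evpl and Hrnr were under the filter, at 1.95 ± 0.158 and 1.24 ± 0.244 CPM in CCI and 1.63 ± 0.317 and 1.02 ± 0.395 CPM in sham.

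Among transglutaminases, 3 other than Tgm1 were tested with edgeR and 0 were called, with 1 at an unadjusted p under 0.05 and 0 called by DESeq2. Tgm2, the widely expressed tissue transglutaminase, was at 22.9 ± 6.59 CPM in CCI and 21.3 ± 4.55 CPM in sham, a log2 fold change of 0.11 (SE 0.252). F13a1, the coagulation transglutaminase, was at 6.34 ± 0.975 and 9.07 ± 0.907 CPM, a log2 fold change of -0.52 that fell short of the limit of 0.58. The epidermal Tgm3 was under the filter, with 10, 4 and 0 counts in CCI and 40, 16 and 12 in sham, so that all CCI rats were below all sham rats. Tgm5, also under the filter, had 31, 14 and 10 counts in CCI and 18, 0 and 30 in sham, and the groups overlapped.

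Of the lipid and processing enzymes of the epidermal barrier, 3 of 17 were tested with edgeR and 0 were called, with 1 at an unadjusted p under 0.05 and 0 called by DESeq2. Elovl4, which makes very long fatty acids, was at 60.2 ± 4.42 CPM in CCI and 72.2 ± 5.29 CPM in sham, a log2 fold change of -0.26 (SE 0.0821). Alox12b, Alox12e, Klk5, Klk7 and Klk8 had no count. Abca12, the lipid transporter of lamellar granules, was under the filter with 207, 162 and 90 counts in CCI and 16, 23 and 45 in sham.

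Among claudins, 9 other than Cldn4 were tested, and Cldn22 was called higher. It had 112, 162 and 167 counts in CCI and 84, 85 and 65 in sham, a log2 fold change of 0.99 (SE 0.259, adjusted p = 0.263, edgeR quasi-likelihood test). The abundant claudins were not called: Cldn19 of myelin was at 88.5 ± 17.6 CPM in CCI and 100.1 ± 6.24 CPM in sham, and Cldn1 of the perineurium at 52.1 ± 19.6 and 52.4 ± 4.43 CPM. Cldn12 was at 31.4 ± 2.02 CPM in CCI and 24.0 ± 2.49 CPM in sham, a log2 fold change of 0.39 that did not reach the limit. Cldn7, another epithelial claudin, had 40, 12 and 35 counts in CCI and 0 in each sham rat, and was under the filter. Of the other 15 tight junction proteins tested with edgeR, 0 were called, with 2 at an unadjusted p under 0.05 and 1, Patj, called lower by DESeq2 at an adjusted p under 0.05. Tjp1, the scaffold ZO-1, had a log2 fold change of 0.08 (SE 0.0547), and Patj, a scaffold of cell polarity, had one of -0.41 (SE 0.0498) and was at 97.3 ± 2.93 CPM in CCI and 129 ± 2.52 CPM in sham.

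Dsp, desmoplakin, which links desmosomes to intermediate filaments, was the barrier gene outside the 8 with the largest called change. It had 4859, 3346 and 1745 counts in CCI and 665, 864 and 701 in sham, or 41.4 ± 18.4 and 8.97 ± 1.71 CPM (n = 3 each). The log2 fold change was 2.21 (SE 0.352, unadjusted p = 0.000552, adjusted p = 0.109, edgeR quasi-likelihood test), and CCI 1 was highest and CCI 3 lowest, as in 7 of the 8 genes. The other 9 adherens and desmosome genes tested were not called by the study's limits with edgeR. In the whole list 5 of 10 had an unadjusted p under 0.05, and DESeq2 called Dsp higher and Cdh3 lower at an adjusted p under 0.05. Cdh1, E-cadherin, was at 316 ± 12.3 CPM in CCI and 357 ± 18.3 CPM in sham, a log2 fold change of -0.18 (SE 0.0596). The desmosomal cadherins were under the filter and not tested. Dsc2 was higher in every CCI rat, with 81, 76 and 61 counts against 45, 40 and 34 in sham, and was called higher when no filter was used. Dsg2 had 152, 172 and 114 counts in CCI and 125, 120 and 50 in sham, and the groups overlapped. Dsg3 had 42, 0 and 16 counts in CCI and 28, 21 and 0 in sham, and Dsc3 had 8 counts, all in sham 2. Dsc1 was lower in every CCI rat, with 8, 4 and 13 counts against 23, 19 and 33 in sham.

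Of 20 genes tested among syndecans, glypicans and heparan sulfate enzymes other than Sdc1, Hpse was called lower. Hpse, the heparanase that trims heparan sulfate chains, had 323, 232 and 388 counts in CCI and 611, 482 and 627 in sham, a log2 fold change of -0.79 (SE 0.229, adjusted p = 0.305, edgeR quasi-likelihood test). Sdc3, the syndecan typical of neurons, was at 269 ± 10.3 CPM in CCI and 273 ± 2.82 CPM in sham, and its partner Sdcbp, syntenin, at 382 ± 6.50 and 409 ± 15.0 CPM. Neither was called. Gpc1, glypican-1, was at 191 ± 24.2 CPM in CCI and 137 ± 5.45 CPM in sham, a log2 fold change of 0.48 that fell short of the limit.

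Among clade B serpins, 5 other than Serpinb2 were tested with edgeR and 0 were called, with 0 at an unadjusted p under 0.05 and 1, Serpinb1b, called higher by DESeq2 at the study's limits. Serpinb1b had 7068, 533 and 8048 counts in CCI and 2139, 565 and 641 in sham, so that CCI 2 lay below all sham rats while CCI 1 and 3 lay above them (log2 fold change 2.34, SE 0.988). Serpinb6a was at 266 ± 27.6 CPM in CCI and 276 ± 55.1 CPM in sham. The keratinocyte serpins Serpinb3, Serpinb3a, Serpinb7 and Serpinb12 had no count.

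Of 7 genes of plasminogen activation tested, Plau was higher. Plau, urokinase, the protease that Serpinb2 inhibits, had 562, 490 and 337 counts in CCI and 306, 265 and 292 in sham, a log2 fold change of 0.75 (SE 0.191, adjusted p = 0.253, edgeR quasi-likelihood test). Anxa2, a surface receptor of plasminogen, was at 788 ± 6.09 CPM in CCI and 698 ± 35.9 CPM in sham and fell short of the limit.

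Of 6 CAP family genes tested other than Crisp3, Glipr2 was higher, with 1144, 1165 and 885 counts in CCI and 808, 652 and 667 in sham and a log2 fold change of 0.66 (SE 0.121, adjusted p = 0.142, edgeR quasi-likelihood test). The secreted Crispld2 was at 57.2 ± 6.03 CPM in CCI and 46.7 ± 2.96 CPM in sham and was not called. Crisp1 had no count, and Crisp2 had 10 over all libraries.

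**Figure D3:**
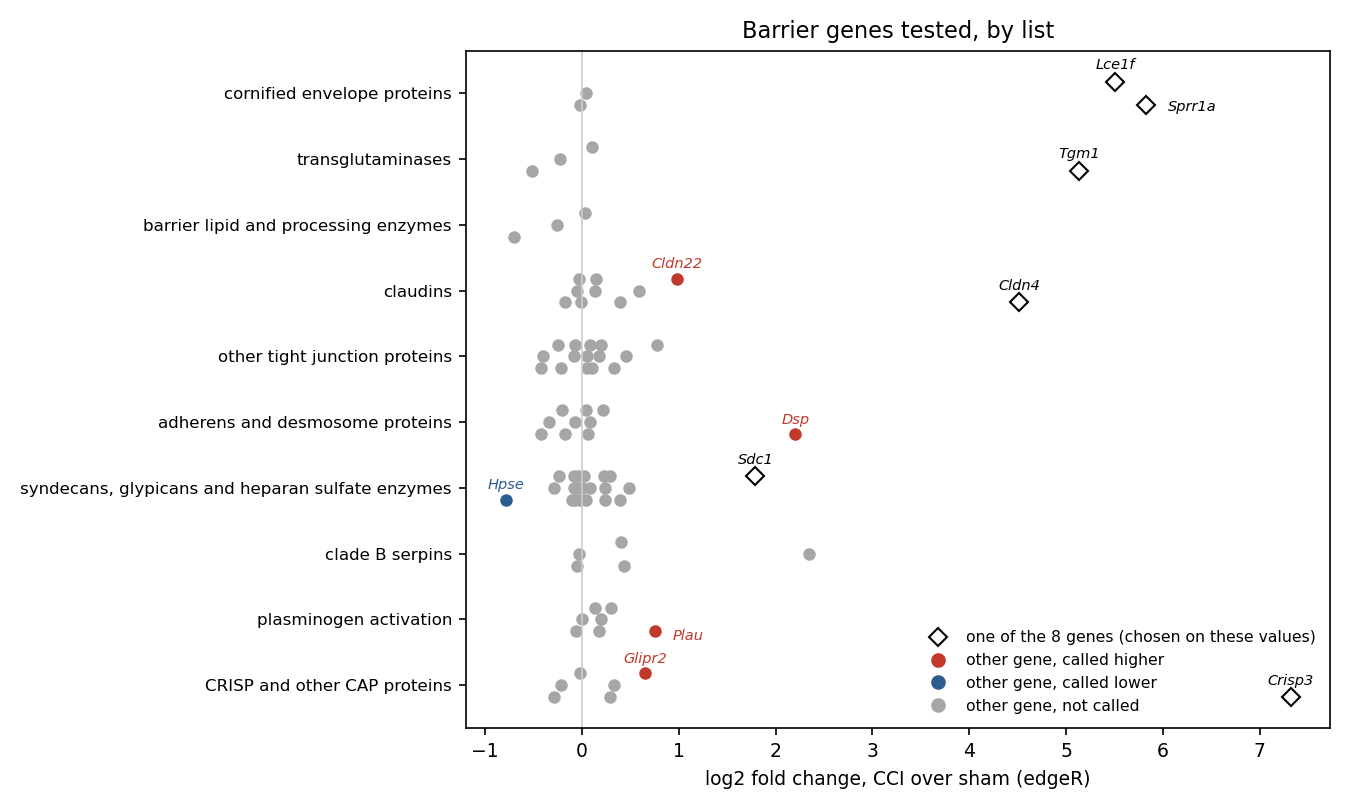
Log2 fold change of CCI over sham for the tested genes of the 10 barrier lists, with a point per gene. Genes called higher by the study's limits are red, the gene called lower is blue and genes not called are grey; open diamonds are those of the 8 genes that were tested and stand on a list, chosen on these values. Most grey points lie near 0, with Serpinb1b at 2.34 the farthest, while the diamonds lie at 1.79 (Sdc1) or above.

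Of the markers that define epithelial cells, some were higher in CCI and several were at or near 0. Of 23 epithelial markers 8 were tested and 1 was higher, Krt7 (12.5% of those tested, against 2.57% of all rows). It had 1059, 516 and 772 counts in CCI and 454, 391 and 427 in sham (log2 fold change 0.95, SE 0.254, adjusted p = 0.267, edgeR quasi-likelihood test). DESeq2 called 2 higher by the same limits. In 3 of the 8, Grhl1 among them, all CCI rats lay above all sham rats in CPM, against 8.63% of all rows. Grhl1 had 204, 118 and 89 counts in CCI and 83, 91 and 77 in sham and was not called. Cldn7, under the filter, had 40, 12 and 35 counts in CCI and 0 in each sham rat. The list summed to 338 to 364 CPM in CCI and 362 to 399 CPM in sham, most of these reads from Cdh1. Esrp1 and Elf3 had no count, Epcam had 22, 20 and 27 counts in CCI and 20, 25 and 14 in sham, and Krt15 and Krt18 had 6 and 5 counts over all libraries. Markers of differentiated keratinocytes summed to 4.75 to 6.81 CPM in CCI and 4.78 to 5.35 CPM in sham, with CCI 1 the lowest of the CCI rats, and Krtdap and Klk7 at 0. Of the keratinocyte list 1 gene was tested, Krt10, and it was not called.

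Other cell types known to express members of the 8 were examined in the same way. Neutrophil markers, relevant to Crisp3, summed to 15.6 to 19.0 CPM in CCI and 10.9 to 31.7 CPM in sham, with 0 of 7 called by edgeR or DESeq2, 0 at an unadjusted p under 0.05 and Ltf at 0. Of markers of plasma cells and B cells, relevant to Sdc1, 3 were tested and 1, Cd38, was higher (33.3%, against 2.57% of all rows tested). The list summed to 64.5 to 68.7 CPM in CCI and 60.1 to 75.4 CPM in sham. Macrophage markers summed to 119 to 167 CPM in CCI and 87.3 to 110 CPM in sham. By the study's limits 5 of 10 were higher, Cd68, Csf1r, Cx3cr1, Tyrobp and Ctss, against 2.57% of all rows tested. The study had named these 5 as raised in these same libraries, so nothing is read from the count. CCI 1 was the highest CCI rat in 8 of the 10 macrophage markers, by a median of 1.25-fold over CCI 2 and 1.37-fold over CCI 3. It was also the highest CCI rat in 62.4% of the 679 rows called higher outside the 8 genes. Among all rows tested the share was 35.0%. The macrophage markers were not tested against these shares, so nothing specific to macrophages is read from their count or medians. The part of macrophages in the result was not tested.

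The markers of the ganglion itself were present in every library. Sensory neuron markers summed to 9811 to 10083 CPM in CCI and 9610 to 11149 CPM in sham, with 0 of 10 called (4 had an unadjusted p under 0.05, and DESeq2 called Nefh lower at an adjusted p), and markers of Schwann cells and satellite glia to 8464 to 10939 and 9942 to 10952 CPM, with 0 of 10 called. Of fibroblast and meningeal markers 0 of 10 were called, and in both of these lists 0 had an unadjusted p under 0.05 and DESeq2 called 0. Of the markers of injured neurons 12 of 12 were higher by the study's limits, against 2.57% of all rows tested. At an adjusted p under 0.05 it was 4 of them, against 0.0638%. The study had named most of these markers as raised in these same libraries, so nothing is read from the counts. Atf3 had 9456, 5431 and 4094 counts in CCI and 555, 634 and 593 in sham (log2 fold change 3.47, SE 0.309, adjusted p = 0.0296, edgeR quasi-likelihood test with Benjamini-Hochberg adjustment). Skeletal muscle markers were lower by the study's limits in 6 of 9, against 1.26% of all rows tested, and the summed level of that list was highest in sham 1.

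**Figure D4:**
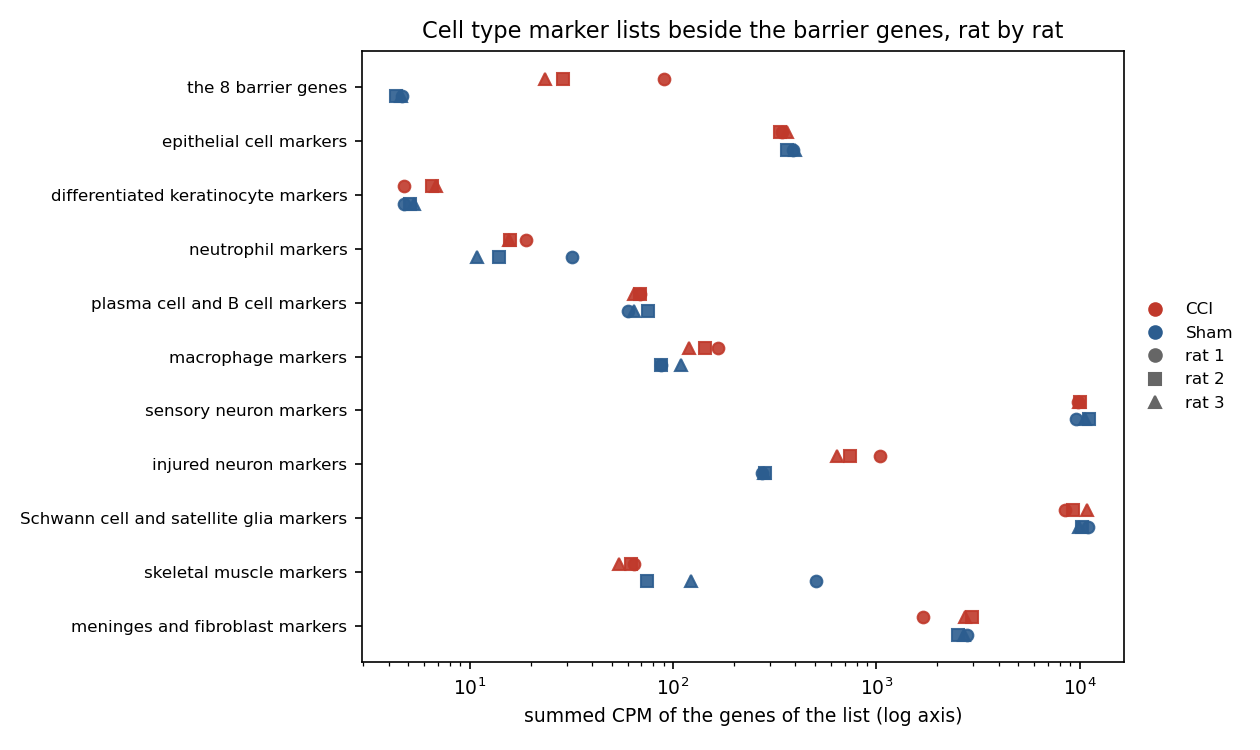
Summed CPM (log axis) of the 8 barrier genes and of 10 lists of cell type markers in each CCI rat (red) and sham rat (blue), with a symbol per rat. The barrier genes, the injured neuron markers and the macrophage markers are higher in all CCI rats than in all sham rats with CCI 1 highest, the muscle markers are lower in all CCI rats, and the epithelial list, at 338 to 399 CPM, and the keratinocyte list, at 4.75 to 6.81 CPM, overlap between the groups.

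In the annotation carried by the table, the 8 genes shared few terms. Membrane was given for 4 (Tgm1, Cldn4, Smagp and Sdc1), extracellular region for 3 (Crisp3, Sdc1 and Serpinb2), cell junction for 2 (Cldn4 and Smagp) and wound healing for 2 (Sdc1 and Serpinb2).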

How the data were processed

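Total RNA of ipsilateral L4-6 DRG from 3 CCI and 3 sham rats was depleted of ribosomal RNA and sequenced in paired ends. The authors aligned the reads to rat genome V101 and assembled transcripts, and the submitters' processing notes name HISAT2 2.0 and StringTie 1.3.0. The authors deposited whole-number read counts per gene row, without normalization, and FPKM values of the same rows. In the deposited FPKM columns a count of 0 stands as 0.0001.

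The 8 genes, the lists and the limits were chosen with earlier results of these data known. A gene was taken from the row with its symbol, protein-coding rows first, then the row with the most counts. The 26663 rows averaging 0.5 FPKM or more entered a fit with edgeR 4.0.16 (R 4.3.3), with TMM factors, the quasi-likelihood test and group as its only term. Rows were called as in the study, at p under 0.05 without adjustment with 0.58 or more of log2 change in either direction, or at a Benjamini-Hochberg adjusted p under 0.05. The p-values measure the spread between 3 libraries per group. Genes named are the 8, the called genes of each list and up to 4 others of each list with the highest CPM. Called neighbours and the 5 rows most like each gene are named too. A few low genes were chosen after their values were seen. These were Abca12, Cldn7, Epcam, Grhl1, Dsc2, Dsg2, uncalled neighbours of Sprr1a and Lce1f, and listed genes at or near 0 counts. Tgm3, Tgm5, Dsc1 and Dsg3 also fall outside the rule of highest CPM. The test was tried on 26663 simulated rows, 200 of them changed 4-fold. By the study's limits it called 191 of the 200 and also 751 unchanged rows. At an adjusted p under 0.05 it called 137 of the 200 and 12 unchanged rows. A call by the study's limits alone can thus fall on an unchanged row. The alternatives were median-ratio (RLE) factors, DESeq2 1.42.0, a minimum of 1 in mean FPKM, no filter, no trend in the prior, blocking on replicate number and omission of each library in turn. Python 3.11.15 with pandas 2.3.3 and scipy 1.17.1 was used. Protein sequences were not used here, and some genes are not reported here.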

Additional observations from a re-analysis of the deposited data

How the results depend on the processing

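The alternatives were run on the numbers of rows called and on the ratios of the 8 genes. Of 64 alternative values of those ratios, 62 moved by less than 1 SD, 2 by more (Cldn4 and Serpinb2 without sham 2) and 0 changed sign. Dsp, Cldn22, Plau, Glipr2 and Hpse were called in 12 of 12 alternatives.

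DESeq2 gave, at an adjusted p under 0.05, 432 raised and 319 lowered rows, and 6 other barrier genes higher (Dsp, Cldn12, Gpc1, Hs6st1, Plau and Glipr2) and 3 lower (Cdh3, Patj and Hpse). A prior without trend gave 5 rows higher and 3 lower at an adjusted p, and 1 neighbour lower. With a mean FPKM of at least 1, neighbours called were 2 higher and 1 lower. With no filter, 10 other barrier genes were higher and 2 lower, adding Abca12, Sdr9c7, Cldn7, Cldn23, Dsc2, Serpinb1b and, lower, Ildr1, and 8 neighbours were higher. Leaving out 1 library at a time gave 3 to 40 rows higher and 3 to 21 lower at an adjusted p, 0 to 1 other barrier genes higher at an adjusted p, 1 to 3 lower by the study's limits, and 1 to 4 neighbours lower. The causes were not tested.

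Same-numbered CCI and sham rats were treated as unpaired. The deviations of these pairs from their group means correlated at -0.0106, -0.0218 and -0.0547, and those of differently numbered pairs at -0.0153 to 0.0365. With 3 rats per group, each centred on its group mean, such values cannot exclude a shared batch. A block for the replicate number left 0 rows higher and 0 lower at an adjusted p, and 617 and 318 by the study's limits. With 0 to 19 sham counts in a rat for 5 of the 8 genes, their ratios rest on few sham reads.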
